A study of Homo sapiens with 30 samples.

Results

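Peaks of 2 histone marks were followed at 10 genes that write or read methylation of histone H3 lysine 9: SUV39H2, SETDB1, SETDB2, EHMT1, EHMT2, TRIM28, CBX1, CBX3, CBX5 and UHRF1. All peaks that overlap one of these genes or lie within 2 kb of it, by the RefSeq positions on GRCh38, were taken as members. They number 20 of 21268 H3K4me3 peaks and 84 of 63580 H3K27ac peaks, and every gene has at least 1 peak of each mark. Of the 104 member peaks, 89 had enough counts to be tested: all 20 of H3K4me3 and 69 of H3K27ac. The genes were taken by name for their role in H3K9 methylation, with earlier results of these data known.

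The cells are OCI-Ly1, an established human line of diffuse large B-cell lymphoma, grown as a bulk culture. They received the vehicle DMSO, 150 nM JIB-04 or 500 nM JIB-04, a small molecule that inhibits Jumonji-family histone demethylases, with 2 libraries per dose and mark. The length of treatment is not given in the sources used here, and nothing says that replicates came from separate cultures, so p-values measure the spread between these libraries, which may be technical. Total counts in peaks ran from 9686420 to 12327122 per H3K4me3 library and from 4360660 to 5410292 per H3K27ac library, and the median peak held 263 to 328 and 21 to 24 counts. All 6 B-cell and all 4 germinal centre B-cell marker genes carried an H3K4me3 peak at their start, with a summed level of 1020 to 1178 and 664 to 727 CPM over the 6 libraries. As means over the libraries, single B-cell markers held 53.4 to 470 CPM and single germinal centre markers 2.69 to 353 CPM. The T-cell list summed to 7.70 to 9.44 CPM with no start peak in the set at CD3E, CD2 and CD4, the monocyte list to 9.72 to 17.8 CPM with none at LYZ and CSF1R, and the epithelial list to 64.02 to 72.001 CPM with none at KRT8 and CDH1; levels outside peaks were not counted. A lower count in a bulk culture can come from fewer cells that carry the mark or from less of it per cell, which cannot be told apart here.

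Methylation of H3 lysine 9 marks silent chromatin. SUV39H2 and SETDB1 are methyltransferases of constitutive heterochromatin and of repeated elements, SETDB2 belongs to the same SET-domain family, and EHMT1 and EHMT2 (also called GLP and G9a) form a dimer that places mono- and dimethylation in euchromatin. TRIM28 (KAP1) is the corepressor that brings SETDB1 to sites bound by zinc finger proteins, the HP1 proteins CBX1, CBX3 and CBX5 bind the methylated lysine through their chromodomain, and UHRF1 reads it together with hemimethylated DNA and recruits the maintenance DNA methyltransferase. The marks measured here are of the opposite kind: H3K4me3 lies at active and poised gene starts, and H3K27ac at active starts and enhancers. The values therefore describe the chromatin of the genes that encode the H3K9 machinery, not H3K9 methylation itself, and the 18 libraries of input, H3K9me2 and H3K9me3 in the series were not analysed here.

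The sequences just upstream of 4 of the genes are shown because the report turns on them: the start of SUV39H2 gained H3K4me3, those of SETDB2 and CBX1 lost it, and EHMT1 lost it inside the gene but not detectably at its start. Each run is the 250 bases before the RefSeq gene start on GRCh38.p14, read 5′ to 3′ on the gene's strand, and capitals mark matches on either strand to the motifs searched.
SUV39H2 (chr10:14878616-14878865, plus strand): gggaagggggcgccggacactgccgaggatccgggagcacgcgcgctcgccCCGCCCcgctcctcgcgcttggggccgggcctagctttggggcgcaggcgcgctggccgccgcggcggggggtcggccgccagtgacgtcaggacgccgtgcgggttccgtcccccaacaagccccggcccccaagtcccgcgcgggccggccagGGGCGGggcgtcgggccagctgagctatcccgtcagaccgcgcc
SETDB2 (chr13:49444024-49444273, plus strand): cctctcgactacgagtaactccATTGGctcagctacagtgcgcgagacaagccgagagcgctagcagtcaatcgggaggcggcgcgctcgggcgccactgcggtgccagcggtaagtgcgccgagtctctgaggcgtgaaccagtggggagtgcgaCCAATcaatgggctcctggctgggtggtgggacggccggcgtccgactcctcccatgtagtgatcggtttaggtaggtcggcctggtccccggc
EHMT1 (chr9:137618755-137619004, plus strand): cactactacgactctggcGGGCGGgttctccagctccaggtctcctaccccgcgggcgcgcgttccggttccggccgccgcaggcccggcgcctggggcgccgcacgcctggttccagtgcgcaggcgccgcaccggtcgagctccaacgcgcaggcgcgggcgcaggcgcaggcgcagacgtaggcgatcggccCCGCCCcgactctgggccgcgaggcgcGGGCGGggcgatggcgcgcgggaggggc
CBX1 (chr17:48101187-48101436, minus strand): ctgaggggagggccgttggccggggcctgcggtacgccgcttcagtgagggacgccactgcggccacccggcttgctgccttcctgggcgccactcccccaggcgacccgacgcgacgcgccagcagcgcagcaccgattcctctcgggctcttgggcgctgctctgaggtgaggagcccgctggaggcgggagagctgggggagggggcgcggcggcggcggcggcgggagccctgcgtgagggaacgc
The capitals are 2 GC boxes (GGGCGG) in SUV39H2, 3 in EHMT1 and 2 CCAAT boxes in SETDB2, while CBX1 holds none of the motifs. All 4 are rich in CG dinucleotides, with 38 in SUV39H2, 25 in SETDB2, 43 in EHMT1 and 30 in CBX1 against a median of 11 over 35116 promoters.

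The motif search covered 14 start positions of 9 of the 10 genes, with TRIM28 not matched in the promoter table. GGGCGG was found in 8 of these 14 promoters, from 6 of the 9 genes, and in 42.6% of all promoters. CCAAT was found in 6 of the 14, from CBX5, SETDB2 and UHRF1, and in 32.0% of all promoters. The E-box CACGTG was found in 4 of the 14, from SETDB1, EHMT2 and CBX5, and in 6.34% of all promoters. Windows of nearby starts overlap. The same CACGTG was counted in both SETDB1 windows, and the same CCAAT in overlapping CBX5 windows. Of the E2F-type motifs, TTTCGCGC was found in 1 of the 14, from UHRF1, and in 0.439% of all promoters, and TTTGGCGC in 0 of the 14 and in 0.550%. Neither the ETS-type motif CCGGAAGT, in 3.423% of all promoters, nor the NRF1 motif, in 1.03%, was found. No motif contains another, and a match or its absence describes letters in this window only.

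In vehicle-treated cells all 10 genes carried an H3K4me3 peak at the start, of 2024 bp at CBX1 to 7180 bp at CBX3, where the median over 10242 gene-start peaks was 2133 bp. The level per kb of peak, in normalised CPM (counts scaled to library size), was highest at CBX3 with 51.5 ± 0.013 CPM per kb (SD, n = 2), in a peak that also covers the start of the divergent neighbour HNRNPA2B1. TRIM28 and CBX1 followed with 42.2 ± 0.482 and 42.1 ± 0.061 CPM per kb (SD, n = 2) and did not differ beyond their spread. SUV39H2 had 40.6 ± 0.032, EHMT2 38.8 ± 0.114, EHMT1 37.4 ± 0.588, CBX5 35.8 ± 0.189 and UHRF1 33.5 ± 0.423 CPM per kb (SD, n = 2). The 2 lowest were SETDB2 with 25.2 ± 1.09 and SETDB1 with 20.5 ± 0.701 CPM per kb (SD, n = 2), both under the median of 31.5 over all gene-start peaks. H3K27ac, in the peak over the start or nearest to it, gave another order: CBX3 was again the highest with 33.3 ± 1.44 CPM per kb, SETDB2 came next with 23.4 ± 0.651, and SUV39H2 was the lowest with 12.2 ± 0.638 (SD, n = 2). SETDB2 thus had rank 9 by H3K4me3 and rank 2 by H3K27ac among the same 10 genes. These SETDB2 peaks differ in width, with 4414 bp in H3K4me3 and 1826 bp in H3K27ac. Other, weaker H3K27ac peaks lie within the same H3K4me3 peak. The part of peak width and splitting in these ranks was not tested.

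At 500 nM JIB-04, H3K4me3 was called higher at 1 and lower at 7 of the 20 member peaks (edgeR quasi-likelihood test, Benjamini-Hochberg adjusted p under 0.05 over all 20402 tested peaks). Over all tested peaks 20.7% were called higher and 18.7% lower, so that calls in both directions were common at this dose. The 7 lower calls belong to 3 genes: 4 to EHMT1, 2 to SETDB2, of which 1 lies mostly past the gene end, and 1 to CBX1. The median log2 fold change of the 20 was -0.12, against -0.0063 over all tested peaks. Among the 10 start peaks alone, 1 was higher and 2 were lower with a median of -0.062, close to the 18.3% higher and 21.2% lower of 10146 gene-start peaks with a median of -0.028. With libraries scaled to their total count instead, 63.1% of all calls were higher instead of 52.5%, and 2 member peaks were higher and 7 lower.

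Against 150 nM JIB-04, the 500 nM libraries had 2 member peaks higher and 8 lower, where 20.5% of all tested peaks were higher and 18.6% lower. The higher ones were the starts of SUV39H2 and CBX5, and the lower ones 5 peaks of EHMT1, 2 of SETDB2 and 1 of CBX1. The SUV39H2 call (log2 fold change 0.10, adjusted p = 0.022) was lost without any 1 of the 4 libraries compared (adjusted p = 0.071 to 0.19) and with DESeq2 (adjusted p = 0.26). The CBX1 call (-0.13, adjusted p = 0.026) was lost without the first 150 nM library (-0.06, adjusted p = 0.47) or the first 500 nM library (adjusted p = 0.21), with total-count scaling (adjusted p = 0.100), loess offsets (adjusted p = 0.15), a minimum mean count of 50 (adjusted p = 0.058) and DESeq2 (adjusted p = 0.32). That of the SETDB2 peak at the 3′ end was lost without the second 150 nM library (-0.13, adjusted p = 0.21) or the second 500 nM library (adjusted p = 0.087) and with DESeq2 (adjusted p = 0.20), and that of the EHMT1 peak at 61.9 kb with DESeq2 (adjusted p = 0.086). At 150 nM against DMSO, edgeR called 0 of 20 member peaks, with 1 at an unadjusted p under 0.05 and 0 by DESeq2, and 0.0% of all tested peaks. An unadjusted edgeR p under 0.05 was found in 4.66% of all tested peaks. The comparisons share libraries and are not independent of each other.

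**Figure D1:**
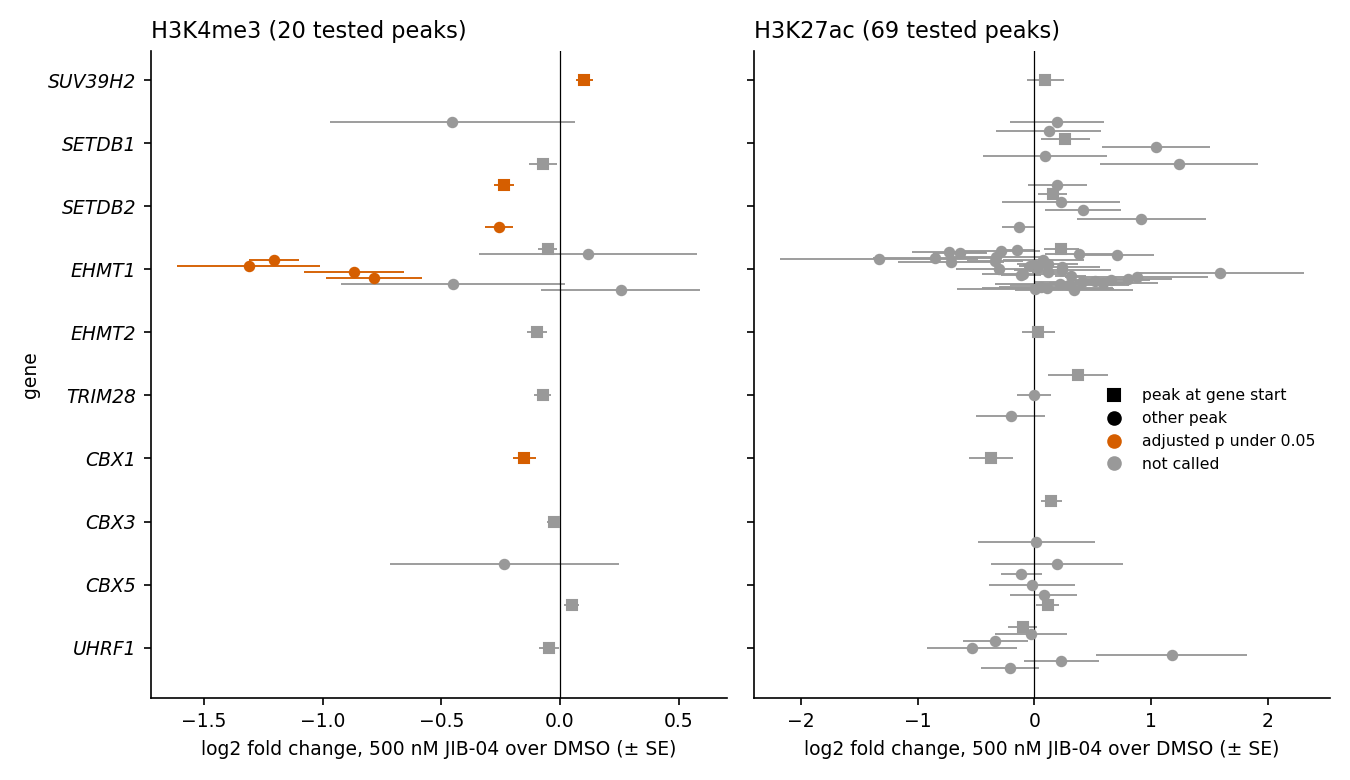
Log2 fold change of every tested member peak at 500 nM JIB-04 over DMSO with its standard error, by gene, for H3K4me3 on the left and H3K27ac on the right; squares are peaks at the gene start, circles other peaks, and orange marks an adjusted p under 0.05. The 4 lower peaks of EHMT1 lie between -1.31 and -0.78, apart from the start peaks, and no H3K27ac peak is called.

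Among the methyltransferase genes, SUV39H2 was the member whose start peak rose. Its peak (chr10:14877365-14880772), which also covers the start of the divergent transcript SUV39H2-DT, held 138 and 138 CPM with vehicle, 138 and 139 at the 150 nM dose, and 148 and 149 at the 500 nM dose. The 500 nM libraries lay above the other 4, which did not differ beyond their spread. The rise was 7.34%, a log2 fold change of 0.10 ± 0.036 (SE; edgeR adjusted p = 0.019). It is small, and the call was lost when any 1 of the 4 libraries compared was left out (edgeR adjusted p = 0.065 to 0.093, log2 fold change 0.09 to 0.11) and with DESeq2 (adjusted p = 0.24).

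SETDB2 lost H3K4me3 at its start and in a peak that overlaps its 3′ end. Its start peak (chr13:49443358-49447771) lies within 2 kb of CAB39L and also belongs to the read-through gene SETDB2-PHF11. It held 115 and 108 CPM with vehicle, 109 and 111 at the 150 nM dose, and 95.8 and 93.4 at the 500 nM dose, so that both 500 nM libraries were the lowest. The log2 fold change was -0.24 ± 0.042 (SE; edgeR adjusted p = 6.4e-06); it fell by 15.1%. At the 3′ end of the gene, a peak within 2 kb of PHF11 (chr13:49494610-49496838) held 56.5 and 57.6, then 52.0 and 56.7, then 48.9 and 46.3 CPM. Most of this peak lies past the SETDB2 end at chr13 position 49495003. This peak fell by 0.26 ± 0.058 on the log2 scale (SE; edgeR adjusted p = 2.8e-04; DESeq2 adjusted p = 0.055), and its change did not differ from that at the start (difference -0.02 ± 0.071, SE; limma adjusted p = 0.86). The H3K27ac peak inside the SETDB2 start peak went from 41.8 and 43.5 CPM in DMSO to 46.3 and 48.9 at 500 nM, which was not called (log2 fold change 0.16 ± 0.127, SE; edgeR adjusted p = 0.69). The difference between the marks at that start was -0.39 ± 0.111 (SE; limma adjusted p = 0.034), against a median of -0.099 over 15988 overlapping pairs. Against 150 nM it was -0.27 ± 0.108 and was not called (SE, limma adjusted p = 0.15). How this difference held without single libraries is not given here.

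SETDB1 and EHMT2 were not called. SETDB1 (chr1:150925131-150927408) held 47.9 and 45.7 CPM with vehicle, 43.2 and 44.8 at the 150 nM dose, and 44.0 and 45.3 at the 500 nM dose. The DMSO libraries lay above the 4 treated ones, whose doses overlapped. The log2 fold change at 500 nM was -0.07 ± 0.061 (SE; edgeR adjusted p = 0.39). A second SETDB1 peak of 232 bp, upstream of the start, held 4 to 12 counts per library and was not called. EHMT2 (chr6:31896529-31899089), whose peak also covers a start of C2 and lies within 2 kb of ZBTB12, held 99.6 and 99.2 CPM with vehicle, 95.4 and 98.1 at the 150 nM dose, and 92.7 and 93.2 at the 500 nM dose. The EHMT2 groups at 0 and 500 nM did not overlap, and the log2 fold change of -0.10 ± 0.043 missed the threshold (SE; edgeR adjusted p = 0.066).

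**Figure D2:**
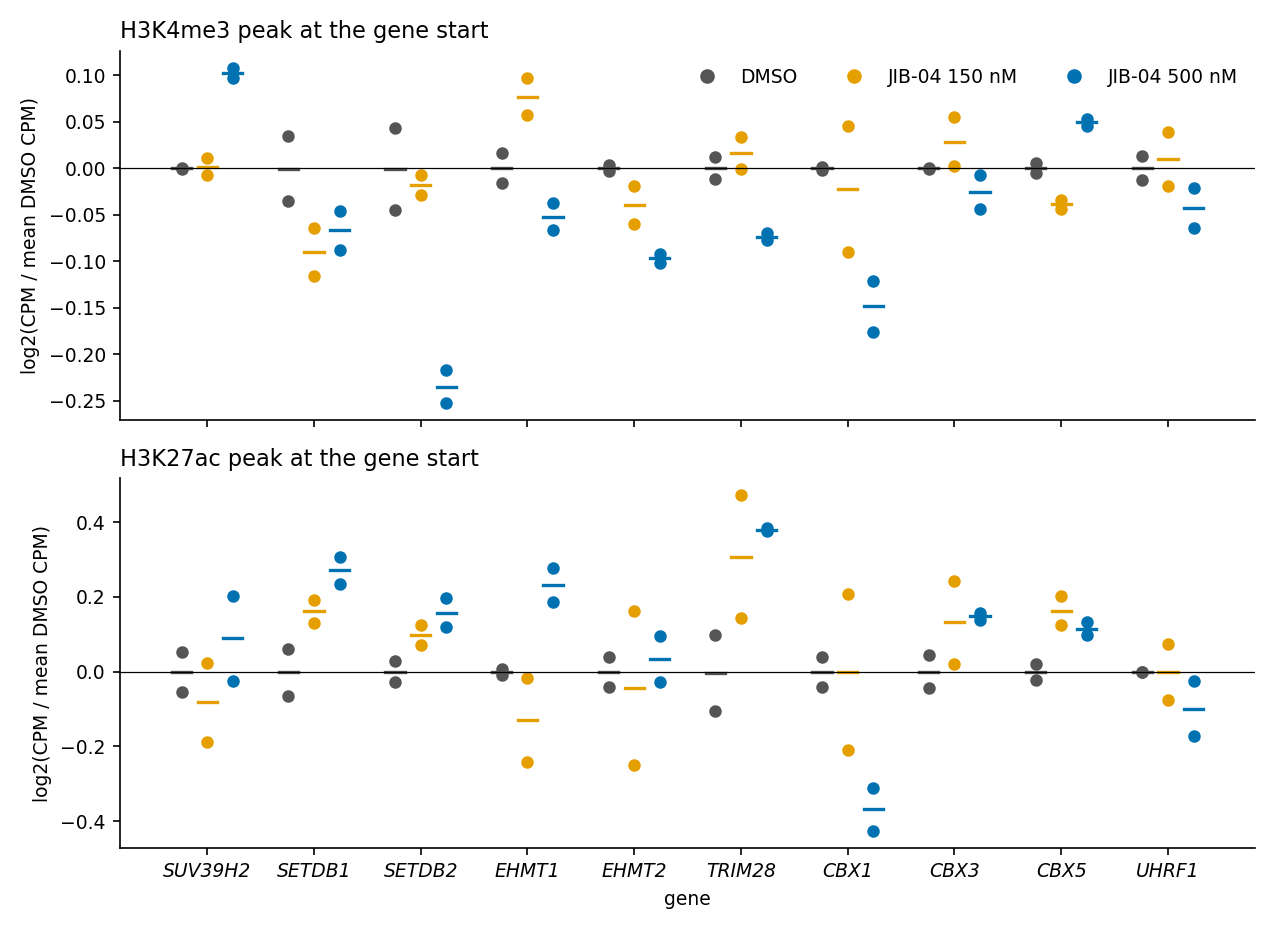
H3K4me3 (top) and H3K27ac (bottom) in the start peak of each gene, as log2 of the CPM of each library over the DMSO mean; points are libraries, short lines group means, and colours the dose; of 2 H3K27ac peaks beside the EHMT1 and TRIM28 starts, the nearer is drawn. In H3K4me3 the 500 nM libraries lie above the other 4 at SUV39H2 and CBX5 and below them at the other starts except SETDB1. Of these starts, SUV39H2, SETDB2 and CBX1 were called against DMSO. The share of all gene-start H3K4me3 peaks that separate in this way was not counted. The H3K27ac libraries of a dose spread more widely.

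EHMT1 showed the largest H3K4me3 changes among the called members, and they lay inside the gene. The gene spans 217123 bp (chr9:137619005-137836127) and has 8 H3K4me3 peaks. The start peak (chr9:137617671-137620892), shared with the start of ARRDC1-AS1, held 119 and 122 CPM with vehicle, 129 and 125 at the 150 nM dose, and 115 and 117 at the 500 nM dose. It was not called against DMSO (log2 fold change -0.05 ± 0.039, SE; edgeR adjusted p = 0.31). Against 150 nM it was lower by 0.13 ± 0.039 on the log2 scale (SE; edgeR adjusted p = 0.0056), a call lost without the first library of either dose (adjusted p = 0.085 and 0.062), with loess offsets on abundance (adjusted p = 0.15) and with DESeq2 (adjusted p = 0.18).

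Between 48.0 and 61.9 kb downstream of the start, 4 EHMT1 peaks lost H3K4me3, with changes of -42.0% to -59.7%. The widest (chr9:137665393-137668683, 3291 bp) held 28.2 and 25.8 CPM with vehicle, 28.8 and 24.8 at the 150 nM dose, and 11.3 and 12.3 at the 500 nM dose. Its log2 fold change was -1.21 ± 0.105 (SE; edgeR adjusted p = 1.1e-14), so that it fell by 56.7%, and the 150 nM libraries overlapped the DMSO libraries.

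The next peak (chr9:137670333-137670886) went from 3.43 and 4.03 CPM in DMSO over 4.39 and 3.35 at 150 nM to 1.19 and 1.84 at 500 nM, a log2 fold change of -1.31 ± 0.301 (SE; edgeR adjusted p = 3.4e-04). The peak at 54.8 kb (chr9:137673261-137674310) went from 6.37 and 7.07 over 8.42 and 5.96 to 3.83 and 3.47 CPM, a log2 fold change of -0.87 ± 0.211 (SE; edgeR adjusted p = 7.1e-04). The peak at 61.9 kb (chr9:137680514-137681332) went from 5.96 and 8.84 over 6.81 and 7.17 to 4.08 and 4.39 CPM, a log2 fold change of -0.78 ± 0.202 (SE; edgeR adjusted p = 0.0013). In each of the 4 peaks both 500 nM libraries lay below all 4 others. The last 3 rest on fewer than 100 counts in every library: 14 to 49, 34 to 94 and 43 to 90. Without the second DMSO library the log2 fold change of the peak at 61.9 kb was -0.50 (edgeR adjusted p = 0.10); the other 3 were called with every library left out in turn.

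These EHMT1 peaks are weak beside the start: in DMSO they held 6.40 to 9.04 CPM per kb, against 37.4 at the start. Together they held 44.9 ± 1.30 CPM with vehicle, 44.8 ± 5.12 at the 150 nM dose and 21.2 ± 1.10 at the 500 nM dose (SD, n = 2). The remaining 3 EHMT1 peaks away from the start, at 20.0, 63.7 and 119.95 kb, held 4 to 28 counts per library and were not called, with log2 fold changes of 0.12, -0.45 and 0.26.

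The log2 fold change of the widest EHMT1 peak or a lower one was found in 1.24% of all tested H3K4me3 peaks, and the corresponding shares for the other 3, in the order of position, were 0.926%, 3.00% and 3.56%. A set closer to them is the 5065 H3K4me3 peaks that lie inside genes, away from gene starts, and overlap a tested H3K27ac peak, of which 14.0% were called higher and 22.7% lower. Within it the shares were 2.41%, 1.76%, 6.32% and 7.27%. The H3K4me3 changes at 500 nM also followed abundance. By quintiles of mean count, the median log2 fold change over all peaks ran from 0.44 in the lowest to 0.20, 0.02, -0.04 and -0.06 in the highest. Of the fallen EHMT1 peaks 3 lie in quintile 2 and 1 in quintile 3, where 12.8% and 19.3% of all peaks were called lower and 34.1% and 29.1% higher. All 10 start peaks but those of SETDB1 and CBX1 lie in quintile 5, where 34.2% were called lower.

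No H3K27ac change was called in the same stretch of EHMT1. The stretch lies under 3 wide H3K27ac peaks of 5377 to 5562 bp, which in DMSO held 24.4, 26.2 and 18.8 CPM per kb, beside 20.4 CPM per kb in the peak just upstream of the EHMT1 start. Together they held 363 and 396 CPM with vehicle, 383 and 396 at the 150 nM dose, and 382 and 373 at the 500 nM dose. Their log2 fold changes at 500 nM were -0.00 ± 0.093, -0.04 ± 0.093 and 0.03 ± 0.100 (SE; edgeR adjusted p = 0.92 to 1.00). The difference between the marks was tested at each H3K4me3 peak against the H3K27ac peak over it. From left to right it was -1.20 ± 0.143, -1.27 ± 0.283, -0.82 ± 0.222 and -0.78 ± 0.220 (SE; limma adjusted p = 1.7e-05, 0.0079, 0.026 and 0.032). Over all 15988 such pairs 1058 had a lower and 336 a higher change in H3K4me3 by the same test. With each of the 12 libraries left out in turn the first difference ranged from -1.27 to -1.13 and was called each time, and the second was lost without the first 500 nM H3K4me3 library (-0.94, adjusted p = 0.11). The next was lost without the first DMSO or second 500 nM H3K27ac library or any of the 4 H3K4me3 libraries compared (adjusted p = 0.052 to 0.11). The last was lost without the first DMSO or either 500 nM H3K27ac library, or the second DMSO or either 500 nM H3K4me3 library (adjusted p = 0.052 to 0.21). The H3K27ac peaks are wider than the H3K4me3 peaks inside them, so that 10.3% to 59.2% of each lies under the H3K4me3 peak compared.

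The 4 fallen peaks of EHMT1 also differed from its start. As in the comparison of marks, they had been picked for their fall in the same H3K4me3 libraries. Neither comparison is separate support for the fall. In log ratios of body to start peak per library, the differences at 500 nM against DMSO were -1.15 ± 0.121, -1.26 ± 0.316, -0.81 ± 0.222 and -0.70 ± 0.212 (SE; limma adjusted p = 3.8e-10, 0.0017, 0.0043 and 0.0095, over 3466 such pairs, of which 631 were lower and 570 higher). For the other 3 EHMT1 peaks away from the start the differences were 0.21, -0.21 and 0.31, not called (limma adjusted p = 0.52 to 0.78). Against 150 nM the 4 fallen peaks were called as well, with adjusted p from 3.4e-09 to 0.029. With 1 library left out, the second was lost without the first 500 nM library (-0.95, adjusted p = 0.060) and the fourth without the second DMSO library (-0.46, adjusted p = 0.17) or the first 500 nM library (-0.65, adjusted p = 0.056).

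**Figure D3:**
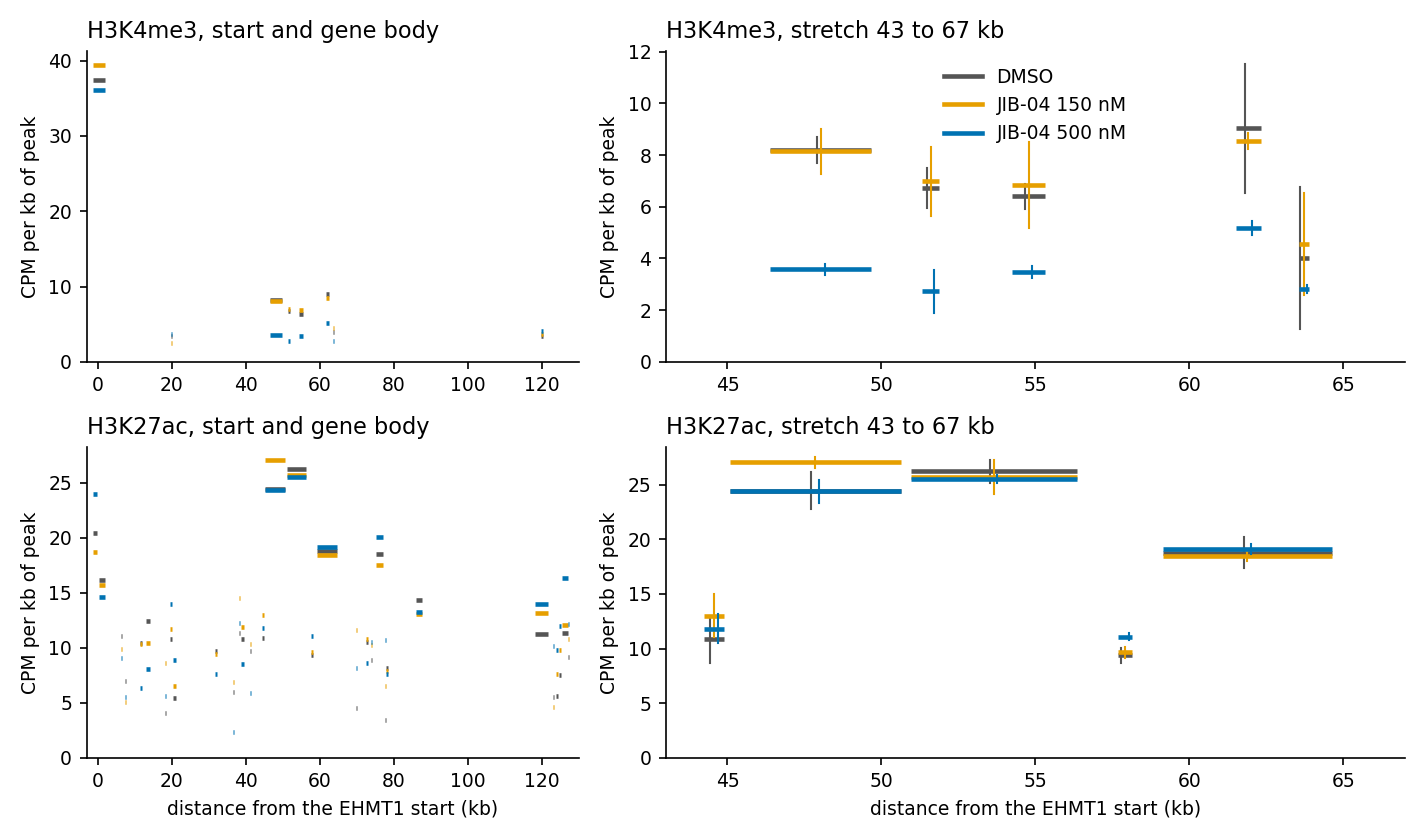
CPM per kb of peak along EHMT1 against the distance from the gene start in kb, for H3K4me3 (top) and H3K27ac (bottom), over the start and gene body (left) and the stretch of the fallen peaks (right); each bar spans a peak at its group mean, colours are doses, and vertical lines on the right are the SD of 2 libraries. The H3K4me3 bars at 500 nM lie at 3.58, 2.73, 3.48 and 5.17 CPM per kb, below those of DMSO and 150 nM, while the H3K27ac bars of the 3 doses lie close together.

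**Figure D4:**
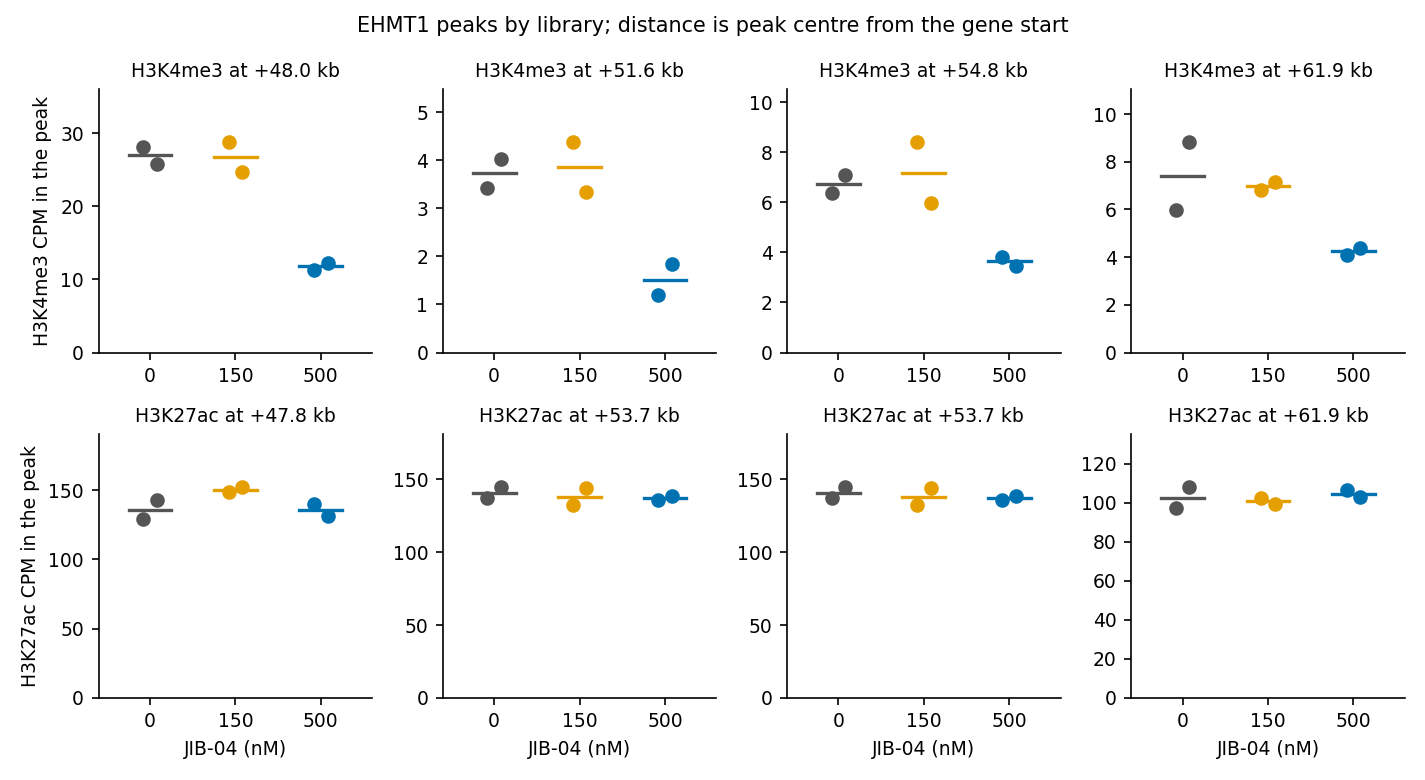
CPM of each library in the 4 fallen H3K4me3 peaks of EHMT1 (top) and in the H3K27ac peak over each (bottom), by JIB-04 dose; points are libraries, lines group means, and 0 nM is DMSO. The H3K27ac panels 2 and 3 show the same peak, which covers both H3K4me3 peaks, and in every H3K4me3 panel both 500 nM libraries lie below the other 4.

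The corepressor gene TRIM28 and the UHRF1 gene were not called. TRIM28 (chr19:58543460-58546651) held 134 and 136 CPM with vehicle, 135 and 138 at the 150 nM dose, and 128 and 128 at the 500 nM dose, the lowest 2 of the 6 libraries, with a log2 fold change of -0.07 ± 0.037 (SE; edgeR adjusted p = 0.12). UHRF1 (chr19:4909036-4912237) held 108 and 106 CPM with vehicle, 106 and 110 at the 150 nM dose, and 103 and 106 at the 500 nM dose, the lowest 2 by a margin within the spread of the other groups, with a log2 fold change of -0.05 ± 0.041 (SE; edgeR adjusted p = 0.40). With loess offsets the UHRF1 and EHMT1 start values turned to 0.01 each, still not called.

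Of the 3 HP1 genes, CBX1 fell at its start. Its peak (chr17:48100245-48102268) held 85.1 and 85.3 CPM with vehicle, 87.9 and 80.0 at the 150 nM dose, and 75.4 and 78.3 at the 500 nM dose, below the other 4 libraries. The log2 fold change was -0.15 ± 0.048 (SE; edgeR adjusted p = 0.0096); it fell by 9.88%. The call was lost without the first 500 nM library (adjusted p = 0.12), with loess offsets (adjusted p = 0.090) and with DESeq2 (adjusted p = 0.23). H3K27ac in the CBX1 start peak was 18.4 and 19.5 CPM with vehicle, 16.4 and 21.9 at the 150 nM dose, and 15.3 and 14.1 at the 500 nM dose, a log2 fold change of -0.37 ± 0.188 that was not called (SE; edgeR adjusted p = 0.45).

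CBX5 and CBX3 were not called against DMSO. CBX5 (chr12:54277921-54282726), within 2 kb of its neighbour HNRNPA1, held 173 and 172 CPM with vehicle, 168 and 167 at the 150 nM dose, and 178 and 179 at the 500 nM dose. The CBX5 groups did not overlap, and the values of 500 nM lay above those of 150 nM by 0.09 ± 0.034 on the log2 scale (SE; edgeR adjusted p = 0.032), a call lost without any 1 of the 4 libraries (adjusted p = 0.092 to 0.17) and with DESeq2 (adjusted p = 0.28). Against DMSO the log2 fold change of CBX5 was 0.05 ± 0.033 (SE; edgeR adjusted p = 0.25), and it was called with total-count scaling (0.08, adjusted p = 0.034) and with loess offsets (0.12, adjusted p = 0.0017). CBX3 (chr7:26197543-26204722) held 369.7 and 369.5 CPM with vehicle, 370.2 and 384 at the 150 nM dose, and 359 and 368 at the 500 nM dose, a log2 fold change of -0.03 ± 0.028 (SE; edgeR adjusted p = 0.48) that turned to 0.069 with loess offsets (adjusted p = 0.013). A second CBX5 peak of 291 bp, at another RefSeq start of the gene, held 7 to 17 counts per library.

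H3K27ac gave no call at any of the 69 tested member peaks in any comparison by edgeR. At 500 nM against DMSO 0 were called, with 8 at an unadjusted p under 0.05 and 0 by DESeq2, where 0.692% of all 54037 tested peaks were higher and 0.231% lower. At 500 nM against 150 nM 0 were called, with 7 at an unadjusted p under 0.05 and 0 by DESeq2, where 1.09% of all were higher and 0.185% lower. At 150 nM against DMSO 0 were called, with 4 at an unadjusted p under 0.05 and 0 by DESeq2, where 0.00185% of all tested peaks were called. In the same order, 11.5%, 10.2% and 3.94% of all tested peaks had an unadjusted edgeR p under 0.05. Among the members the shares were 11.6%, 10.1% and 5.80%. The median member peak at 500 nM had a log2 fold change of 0.11 against -0.0040 over all tested peaks. EHMT1 alone holds 43 of the 84 H3K27ac member peaks. At 500 nM against 150 nM the lowest edgeR adjusted p of a member peak was 0.13, in EHMT1. Nearest to a call at 500 nM against DMSO, and named after its value was seen, was an EHMT1 peak 126.1 kb from the start (chr9:137744393-137745845). This peak held 17.01 and 16.0 CPM with vehicle, 15.7 and 19.4 at the 150 nM dose, and 23.5 and 23.9 at the 500 nM dose. Its log2 fold change was 0.52 ± 0.175 (SE; edgeR adjusted p = 0.17), and 0.53 without the first 150 nM library (adjusted p = 0.030).

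H3K27ac at the other starts gave the following values in DMSO and then at 500 nM, none of them called. SUV39H2 held 24.8 and 23.1, then 23.5 and 27.6 CPM. SETDB1 held 11.03 and 12.03, then 13.6 and 14.3 CPM. EHMT1 held 26.0 and 26.3, then 31.6 and 29.7 CPM in the peak just upstream of the start. The EHMT1 peak just inside the gene (chr9:137619222-137621047), which has the larger overlap with the H3K4me3 start peak, held 26.7 and 32.3, then 25.6 and 27.8 CPM, with overlapping groups and a log2 fold change of -0.15 ± 0.152 (SE; edgeR adjusted p = 0.77). The 2 groups did not overlap at SETDB1, SETDB2, the upstream EHMT1 peak, the smaller TRIM28 peak, CBX3 and CBX5, where the 500 nM libraries were the higher, nor at CBX1 and UHRF1, where they were the lower. An exact test of 2 against 2 libraries cannot give a p under 0.333. The share of all gene-start peaks that separate in this way was not counted. Over 9665 gene-start H3K27ac peaks the median log2 fold change was 0.078, against 0.13 at the member starts. TRIM28 held 6.44 and 7.42, then 9.04 and 8.996 CPM in the peak nearest to the start, while the larger TRIM28 peak beside it (chr19:58544369-58546051) held 29.9 and 31.3, then 29.6 and 31.7 CPM, with overlapping groups. CBX3 held 152 and 162, then 173 and 175 CPM, and CBX5 94.0 and 91.3, then 99.1 and 101 CPM. UHRF1 held 50.3 and 50.3, then 44.6 and 49.5 CPM. EHMT2 held 35.9 and 37.9, then 39.4 and 36.2 CPM, with overlapping groups. Start peaks of H3K27ac held 41 to 838 counts on average, with standard errors of 0.091 to 0.255 on the log2 scale, while the called changes of H3K4me3 starts lay between -0.24 and 0.10. At like counts the errors were wider in H3K27ac, with 0.091 at CBX3 for a mean count of 838, than in H3K4me3, with 0.048 at CBX1 for 901. Between libraries of a dose, chi-square per degree of freedom was 1.21 to 2.36 in H3K27ac and 0.919 to 1.17 in H3K4me3, and the part of depth in these errors was not tested.

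Counts were also summed over all peaks of a gene, so that the SETDB2 sum includes the peak that lies mostly past its 3′ end. SUV39H2 and CBX1 have 1 H3K4me3 peak each, so their sums are the counts of the start peak fitted again. These sums are no separate support for the start calls. How the sums held without single libraries was not tested. In H3K4me3 at 500 nM, EHMT1 fell by 0.24 ± 0.035, SETDB2 by 0.22 ± 0.034 and CBX1 by 0.13 ± 0.046 on the log2 scale, and SUV39H2 rose by 0.13 ± 0.033 (SE; edgeR adjusted p = 8.8e-07, 2.1e-06, 0.028 and 0.0023 over 13449 genes, of which 2805 were higher and 2266 lower). The sums of the other 6 genes were not called, with CBX5 nearest at 0.07 ± 0.031 (SE; edgeR adjusted p = 0.072). In H3K27ac at 500 nM against DMSO, edgeR called 0 of the 10 sums, with 2 at an unadjusted p under 0.05 and the lowest adjusted p, 0.18, at CBX1. Over all 12428 genes, 107 were called higher and 106 lower.

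The genes around these members were read through a list of 32 partners and regulators of H3K9 methylation and DNA methylation, of which 31 had a start peak in each mark and DNMT3B had none. At 500 nM against DMSO, H3K4me3 was called higher at 3 and lower at 12 of the 31 by edgeR (4 in all by DESeq2), with a median log2 fold change of -0.08, beside the 18.3% and 21.2% of all gene-start peaks given above. The changes were mostly small, from -0.31 to 0.21. The largest were at ATRX, a remodeller of heterochromatin, which fell by 0.31 ± 0.068 (SE; edgeR adjusted p = 1.4e-04), at CDCA7, the partner of the remodeller HELLS, which fell by 0.24 ± 0.034 (SE; edgeR adjusted p = 7.7e-08), and at the methyltransferase-family gene PRDM2, which rose by 0.21 ± 0.040 (SE; edgeR adjusted p = 1.7e-05). In H3K27ac edgeR and DESeq2 each called 0 of the 31, with 5 at an unadjusted p under 0.05. Over all gene-start H3K27ac peaks edgeR called 0.569% higher and 0.155% lower, and 12.6% had an unadjusted p under 0.05.

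Among 10 genes of H3K9 demethylases, the enzymes that remove the mark, H3K4me3 at 500 nM against DMSO was higher at 1 start and lower at 4 by edgeR (1 in all by DESeq2), beside 18.3% and 21.2% of all gene-start peaks. KDM4B fell most, from 86.5 and 85.6 CPM in DMSO over 94.5 and 92.6 at 150 nM to 48.6 and 44.7 at 500 nM, a log2 fold change of -0.88 ± 0.052 (SE; edgeR adjusted p = 2.8e-21). KDM3A fell by 0.22 ± 0.050, and PHF2 rose by 0.23 ± 0.053 (SE; edgeR adjusted p = 3.8e-04 and 4.0e-04). In H3K27ac 0 of the 10 were called against DMSO, with 2 at an unadjusted p under 0.05 and 0 by DESeq2, beside the shares of all gene-start H3K27ac peaks given above. Against 150 nM 1 was higher by edgeR and 0 by DESeq2: a JMJD1C peak (chr10:63266289-63269860), at 43.2 and 39.3 CPM with vehicle, 44.2 and 30.5 at the 150 nM dose, and 54.6 and 54.2 at the 500 nM dose (log2 fold change 0.55 ± 0.136, SE; edgeR adjusted p = 0.020). That H3K27ac peak lies away from the JMJD1C H3K4me3 start peak (chr10:63464272-63466738), so that the marks were read at different places. Over all gene-start H3K27ac peaks 0.559% were higher and 0.114% lower against 150 nM. The KDM4B start (chr19:4968053-4971822) lies past the end of UHRF1 at chr19 position 4962154, outside its window of 2 kb. The UHRF1 start itself differed by -3.10% from DMSO and was not called. An H3K27ac peak within 10 kb of UHRF1 (chr19:4966686-4968629) overlaps the KDM4B H3K4me3 start peak. That H3K27ac peak fell by 0.83 on the log2 scale (edgeR adjusted p = 9.5e-04). The KDM4B peak counted among the 10 in H3K27ac was another and weak one (chr19:4969137-4969391). It held 2.07 and 5.82 CPM with vehicle and 2.26 and 4.11 at the 500 nM dose.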

How the data were processed

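The authors deposited 1 table of read counts per mark, not normalized, with 1 column per library and 1 set of peaks per mark. Per the file headers, they were made with featureCounts 2.0.1, without strand, with a read allowed in more than 1 peak and a minimum overlap of 0.2 of its length. The paired-read option is set there although the labels' protocols describe 50 bp single reads, and whether counts are of reads or fragments is therefore open. The submitters' processing notes name Trim Galore 0.6.7, BWA 0.7.17-r1188, Picard 2.27.4, MACS2 2.2.7.1, deepTools 3.5.1, edgeR 3.42.4 and the build GRCh38. How the peak sets were merged is not given in the sources used here.

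Sample titles gave the group, dose and replicate number of each library. All peaks of a mark were fitted over its 6 libraries with edgeR 4.0.16 (R 4.3.3) after filterByExpr by group and TMM scaling, by the quasi-likelihood test with Benjamini-Hochberg adjustment over all tested peaks at 0.05. Standard errors were derived from the fold change and its F statistic. CPM are after TMM. Added after the data were seen were a limma 3.58.1 voom contrast between the marks on overlapping peaks (at least 1 bp), limma on log ratios of body to start peak, edgeR on counts summed per gene, and a term for a split of the H3K27ac libraries. The fits were also run on simulated counts in which few peaks changed, with as many raised as lowered. Those counts held no shift with abundance, so that this feature of the H3K4me3 data was not tested there.

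Peaks were named with values by library where they were a gene's start peak (over the RefSeq start, else the nearest within 2 kb, and of several the one with the most counts) or were called in any comparison of their mark. Up to 6 genes of the surrounding lists were named, by the largest change among those called. Members, lists and motifs were chosen with earlier results of these data known. Coordinates are those of the tables, counted from 1. RefSeq gene and promoter tables gave positions and sequences, with no start position for TRIM28, where either gene end was used. No genome was used, so that exons, introns and peak sequences are not given. DESeq2 1.42.0, other scalings, filters, windows, a replicate block and fits without each library were the alternatives. No replicate pair was taken as 1 library: the 150 nM H3K4me3 pair differed by less than sampling noise (chi-square per degree of freedom 0.919), and so did the first DMSO and first 150 nM libraries (0.947).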

Additional observations from a re-analysis of the deposited data

How the results depend on the processing

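Of 604 values recomputed under other settings for 43 results, 547 kept their side of the threshold (counts: stayed within 1.5 times), 54 lost the call, 2 gained one and 1 changed sign with a call. Of the 547, 6 values that were not called under either setting changed sign: with loess offsets the EHMT1 and UHRF1 H3K4me3 starts, with total-count scaling the CBX3 H3K4me3 start (0.0078), and without 1 library the H3K27ac starts of SUV39H2 (-0.02) and, for 2 libraries, EHMT2 (-0.01 and -0.02). The 1 that changed sign with a call was the CBX3 H3K4me3 start, at 0.069 with loess offsets. The CBX5 start gained its call against DMSO with total-count scaling and loess offsets. With DESeq2 the member peaks called in H3K4me3 fell from 8 to 5 at 500 nM against DMSO and from 10 to 4 at 500 nM against 150 nM, all lower. Without 1 library the first count ranged from 6 to 8 and the second from 6 to 12. In H3K27ac at 500 nM against DMSO, 1 member peak was called when the 4 libraries of the comparison were fitted alone, 1 (in KDM4B's neighbourhood) with a window of 10 kb, and 0 to 1 without 1 library; the peak in the first and last case was the EHMT1 peak at 126.1 kb. At 500 nM against 150 nM, 1 H3K27ac peak was called with the replicate block and 1 with the split of libraries as a term. Both times it was the EHMT1 peak chr9:137783046-137783281, of 3.20 and 4.33 on the log2 scale (adjusted p = 0.047 and 0.016), whose 150 nM libraries held 0.00 and 0.377 CPM. That split sets the second DMSO and second 150 nM H3K27ac libraries, with 71.5 and 45.9 CPM on 5 unplaced contigs, against 322 to 446 in the other 4. Of the 19 H3K4me3 member peaks that overlap an H3K27ac peak, 11 did so over at least 50% of both. The cause of these shifts was not tested.

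Replicate numbers are shared between groups, but with 2 libraries per group they mark no stated culture or day. The deviations of same-numbered libraries had correlations of 0.12 to 0.30 in H3K4me3 and 0.048 to 0.22 in H3K27ac. With the replicate block edgeR called 8 H3K4me3 member peaks at 500 nM against DMSO and 12 at 500 nM against 150 nM, and the widest fallen EHMT1 peak had -1.21 (adjusted p = 6.5e-15). Depth limits which H3K27ac peaks could be tested: 15 of the 84 member peaks had too few counts to be tested.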
